A study of Homo sapiens with 4 samples.

Results

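The genes described here are 10 imprinted genes, NNAT, SNRPN, H19, IGF2, MEG3, DLK1, PEG10, PEG3, MEST and NDN, in 2 single-cell transcriptomes of human pluripotent stem cells (hPSC) and of cells derived from them. They were taken by name from the 60674 features of the count matrices, and all 10 were found there. Of these, 5 reached 20 CPM (UMI counts scaled to a common library total) in at least 1 library, namely NNAT, SNRPN, PEG10, MEST and NDN, and the other 5 lay below that level in both.

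The cells were labelled as H9, an established hPSC line. Both cultures carried lentiviral guides from a pool together with Cas9 and mCherry, and were sorted by their fluorescence and left to recover for 1 week. The ectoderm culture was induced to differentiate after that, and the hPSC culture was taken as stem cells. Each culture gave 1 droplet 3′ transcriptome library and 1 amplicon table that links cell barcodes to guides. The guide tables named 80 targets for ectoderm and 113 for hPSC, with 0 targets shared and 0 of the 10 imprinted genes among them. State, guide pool and culture therefore cannot be told apart, and there are no replicates, no test between the libraries and no p-value. Intervals are exact 95% intervals and cover counting error only.

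An imprinted gene is expressed mainly from the copy inherited from 1 parent, because a methylation mark set in the egg or the sperm is kept on that copy after fertilization. The mark lies at an imprinting control region, which often acts on a whole cluster of neighbouring genes, some active on the maternal and some on the paternal copy. Many of these genes act in fetal growth and in the nervous system, and in cultured pluripotent cells imprints are known to be lost at some loci. The counts here are not split by allele, so they give the level of each gene and not which parental copy was read.

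After filtering, the ectoderm library held 16360 cells with 91249888 UMIs (unique molecular identifiers, 1 per captured RNA molecule), and the hPSC library held 15326 cells with 83246015 UMIs. The median cell had 4499 UMIs in ectoderm and 4807.5 in hPSC, and 78 cell barcodes occurred in both libraries. All 7 neural ectoderm progenitor markers that reached 20 CPM were higher in ectoderm, with a summed level over the 8 markers of 2275 CPM in ectoderm against 343 CPM in hPSC. Of the 10 pluripotent markers 3 had a log2 ratio above 0 and 7 below 0, with a median of -0.49. They summed to 3378 CPM in ectoderm against 3895 CPM in hPSC. A rule of size asked for 20 CPM or more in 1 library and a log2 ratio of 1 or more, or -1 or less. By this rule 1 marker was higher, SOX2, which neural progenitors also express, and 3 were lower. Of all 6249 genes at that level, 3.25% were higher and 4.03% lower by the rule. NANOG had 11.6 CPM in ectoderm and 178 CPM in hPSC, and POU5F1 had 485 CPM in ectoderm and 1155 CPM in hPSC. TDGF1, the third that was lower by the rule, had 112 CPM in ectoderm and 273 CPM in hPSC. Markers of the mesoderm summed to 24.5 CPM in ectoderm and 30.4 CPM in hPSC, and those of endoderm and liver to 0.658 CPM in ectoderm and 1.24 CPM in hPSC, with SOX17 and TTR at 0 in ectoderm and in hPSC. Markers of neurons summed to 23.1 CPM in ectoderm and 52.8 CPM in hPSC, and those of neural crest to 56.8 CPM in ectoderm and 38.7 CPM in hPSC. Markers of trophoblast and amnion summed to 5.97 CPM in ectoderm and 9.6 CPM in hPSC with CGA and CGB5 at 0, and those of endothelium and blood to 3.27 CPM in ectoderm and 29.9 CPM in hPSC, nearly all of it KDR. The part of any of these in the values below was not tested. In a check of expression against the line named in the labels, 2 of 2 libraries did not match it, so the identity of the line is unsettled for every value below.

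Start regions of 4 of the genes are shown with their CpG pairs, on which methylation is set. An imprint lies at its control region, which need not be in these windows, so their CpG counts do not describe the imprint. SNRPN and NDN stand for the chromosome 15 genes that were lower in ectoderm, MEG3 had the most unequal counts, and H19 was close to undetected. Each region is the 250 bases before a RefSeq transcript start on GRCh38.p14, read on the strand of the gene, with each CpG in capitals. The SNRPN stretch is chr15:24954737-24954986 on the plus strand, the NDN stretch is chr15:23687306-23687555 on the minus strand, the MEG3 stretch is chr14:100825858-100826107 on the plus strand, and the H19 stretch is chr11:2001267-2001516 on the minus strand.
SNRPN: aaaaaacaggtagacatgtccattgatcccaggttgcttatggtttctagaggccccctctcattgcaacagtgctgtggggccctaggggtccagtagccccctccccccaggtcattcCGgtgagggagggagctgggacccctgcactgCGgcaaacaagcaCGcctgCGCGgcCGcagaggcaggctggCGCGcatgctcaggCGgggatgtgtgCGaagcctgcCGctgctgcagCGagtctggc
NDN: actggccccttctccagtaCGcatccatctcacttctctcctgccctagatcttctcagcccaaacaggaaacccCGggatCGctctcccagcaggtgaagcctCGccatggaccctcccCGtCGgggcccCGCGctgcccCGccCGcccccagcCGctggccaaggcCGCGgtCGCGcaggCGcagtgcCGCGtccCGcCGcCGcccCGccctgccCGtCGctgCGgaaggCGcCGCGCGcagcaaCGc
MEG3: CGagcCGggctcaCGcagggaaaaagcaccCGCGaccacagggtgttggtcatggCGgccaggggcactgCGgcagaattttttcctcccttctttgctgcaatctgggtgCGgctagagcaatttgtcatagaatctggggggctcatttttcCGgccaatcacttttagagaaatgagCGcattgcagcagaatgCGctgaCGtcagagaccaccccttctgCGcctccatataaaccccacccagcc
H19: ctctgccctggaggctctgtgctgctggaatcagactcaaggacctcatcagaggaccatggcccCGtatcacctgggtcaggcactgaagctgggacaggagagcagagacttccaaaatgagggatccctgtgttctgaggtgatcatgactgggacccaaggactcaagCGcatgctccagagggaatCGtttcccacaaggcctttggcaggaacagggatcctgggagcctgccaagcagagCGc
NDN had 30 CpG pairs in this window, MEG3 had 13, SNRPN had 12 and H19 had 4, against a median of 11 over the 35097 promoters of the table. Among all promoters, 12.4% held at least as many as NDN and 70.7% at least as many as H19. Methylation was not measured in these libraries, so the capitals mark sequence and not a methylated state. SNRPN has several starts in the table and the counts do not tell which of them was used. The one shown has the most CpG pairs, and the others have 6, 1 and 6, below the median.

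The level of each gene is its UMIs summed over the cells of a library, given as CPM of all UMIs of that library. A UMI counts 1 molecule at the 3′ end whatever the length of the transcript, so levels of different genes were set beside each other without scaling by length. In ectoderm the order was SNRPN, NNAT, MEST, PEG10, NDN, DLK1, MEG3, H19, IGF2 and PEG3. In hPSC it was SNRPN, MEST, PEG10, NNAT, NDN, DLK1, H19, IGF2, MEG3 and PEG3. NNAT thus ranked above MEST and PEG10 in ectoderm and below them in hPSC. Neighbours in either order had intervals that did not overlap, except H19, IGF2 and PEG3 in ectoderm and H19, IGF2, MEG3 and PEG3 in hPSC.

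**Figure D1:**
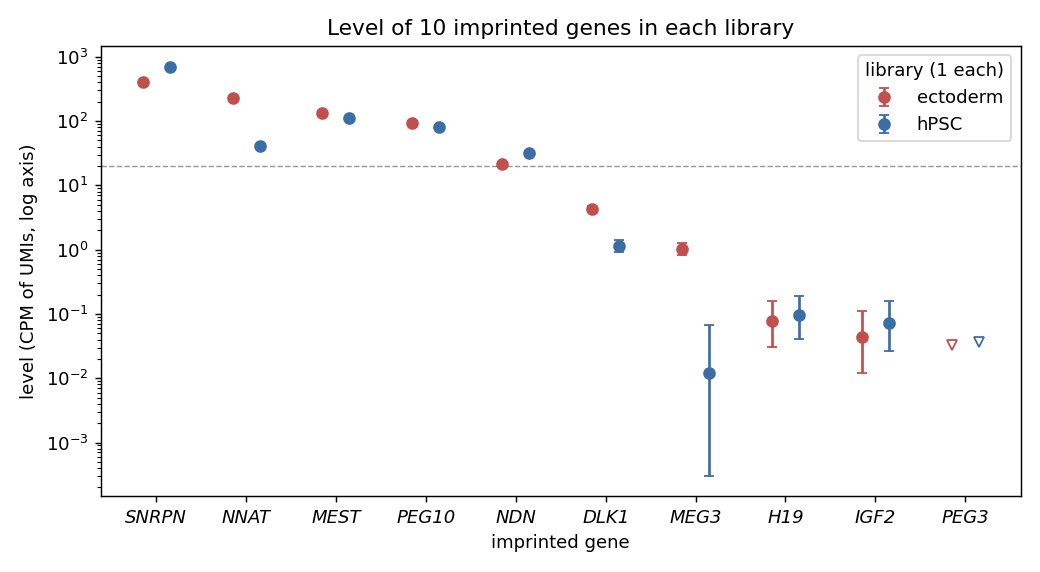
Level of the 10 imprinted genes in CPM of UMIs on a log axis, in ectoderm (red) and hPSC (blue), with exact Poisson 95% intervals; an open triangle is the floor of 3 counts for a gene with 0 UMIs, and the dashed line is 20 CPM. NNAT lies with 232 CPM in ectoderm against 41.7 CPM in hPSC, whereas SNRPN lies with 402 CPM in ectoderm against 704 CPM in hPSC.

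NNAT encodes neuronatin, a small membrane protein of the endoplasmic reticulum that is expressed in the developing brain, and it is read from the paternal copy. The gene lies on chromosome 20 (GRCh38, chr20:37521206-37523693, plus strand), within the span of BLCAP, which runs on the other strand. Of the annotated bases at its 3′ ends, 7.2% overlap BLCAP on that strand, and the strand setting of the counting is not given. BLCAP had 71.3 CPM in ectoderm and 56.2 CPM in hPSC. NNAT had 21181 UMIs in ectoderm and 3473 in hPSC, which is 232 CPM in ectoderm and 41.7 CPM in hPSC. Its log2 ratio of ectoderm over hPSC was 2.48, with an interval of 2.42 to 2.53, a fold of 5.56. NNAT was the only imprinted gene of the 10 that met the rule of size, at least 20 CPM in 1 library and a log2 ratio of 1 or more. Of all 6249 genes at that level, 203 met it in this direction, or 3.25%, and 1.49% had a ratio of larger size than NNAT. Against this background, 1 of the 5 genes that could be counted was higher.

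Of the cells, 61.7% in ectoderm and 19.4% in hPSC held a UMI of NNAT. With every cell thinned to 2500 UMIs, which leaves out 1196 ectoderm and 583 hPSC cells below that depth, the share was 40.8% (40 to 41.6%) in ectoderm and 10.3% (9.8 to 10.8%) in hPSC. Cells with 3 or more UMIs made up 17.1% of ectoderm cells and 0.405% of hPSC cells, and the highest count was 14 UMIs in an ectoderm cell and 5 in an hPSC cell. NNAT was thus read in more cells of the ectoderm library and at more molecules per cell. Still, 38.3% of ectoderm cells had 0 UMIs of it at full depth. No cell type that should lack NNAT was identified in either library, so the share that free RNA gives could not be measured, for NNAT or for the other genes.

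SNRPN and NDN lie in the imprinted region of chromosome 15 that is lost or silenced in Prader-Willi syndrome, and both are read from the paternal copy. SNRPN (chr15:24823637-24978723, plus strand) encodes SmN, a spliceosome protein abundant in neurons that closely resembles the SmB proteins made from SNRPB. SNRPN was the most abundant of the 10 genes in each library, with 36666 UMIs or 402 CPM in ectoderm and 58592 UMIs or 704 CPM in hPSC. Its log2 ratio was -0.81 (-0.83 to -0.79). SNRPN was therefore lower in ectoderm but did not reach the size that the rule asks for, which 4.03% of the 6249 genes did in this direction. A ratio of larger size was found for 11.5% of the genes.

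SNRPN was detected in 64% (63.2 to 64.7%) of thinned ectoderm cells and in 82% (81.3 to 82.6%) of thinned hPSC cells. At full depth the median cell held 2 UMIs in ectoderm and 3 in hPSC, and 6 or more UMIs were found in 6.49% of ectoderm cells and 22% of hPSC cells. The cells of the 2 libraries overlapped widely, with counts up to 16 in ectoderm and up to 30 in hPSC. In the annotation, 56.3% of the bases at its 3′ ends are shared on the same strand with SNURF, SNHG14 or an unnamed transcript, and how reads in such bases were counted is not given in the sources used here. SNURF, the upstream reading frame on the same transcript, had 5.12 CPM in ectoderm and 6.67 CPM in hPSC. SNHG14, the long host transcript of snoRNAs downstream of SNRPN, had 1115 CPM in ectoderm and 1041 CPM in hPSC, a log2 ratio of 0.10, so the SNRPN ratio was not shared by it. SNRPB had 286 CPM in ectoderm and 369 CPM in hPSC, a log2 ratio of -0.37.

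NDN (chr15:23685400-23687330, minus strand) encodes necdin, a MAGE family protein that restrains growth in neurons. It had 1982 UMIs or 21.7 CPM in ectoderm and 2683 UMIs or 32.2 CPM in hPSC, a log2 ratio of -0.57 (-0.65 to -0.49). The share of thinned cells with a UMI was 5.38% (5.03 to 5.75%) in ectoderm and 7.43% (7.02 to 7.87%) in hPSC, and no cell of either library held more than 3 UMIs. NDN does not overlap another annotated gene. MAGEL2, a ubiquitin ligase regulator of the same family and its neighbour, had 25 UMIs in ectoderm and 150 in hPSC, a log2 ratio of -2.72 (-3.39 to -2.10), at a level far below the minimum of the rule. UBE3A, the ubiquitin ligase at the other end of the region, had 100.4 CPM in ectoderm against 97.5 CPM in hPSC. Of the other neighbours listed for this region, NPAP1 had 5 UMIs in ectoderm and 17 in hPSC, a log2 ratio of -1.90 (-3.69 to -0.40), ATP10A had 14 in ectoderm and 56 in hPSC, a log2 ratio of -2.13 (-3.09 to -1.27), and MKRN3 and PWAR5 had 0 in either library. SNRPN, NDN, SNURF, MAGEL2, NPAP1 and ATP10A were thus lower in ectoderm, and SNHG14 and UBE3A lay no more than 0.10 from 0 on the log2 scale. SNURF, MAGEL2, NPAP1 and ATP10A lay below 20 CPM in both libraries. Of all 6249 genes at 20 CPM or more, 3357 had a ratio below 0. Without a minimum level, 3883 of 28721 genes were at least 2-fold lower in ectoderm.

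**Figure D2:**
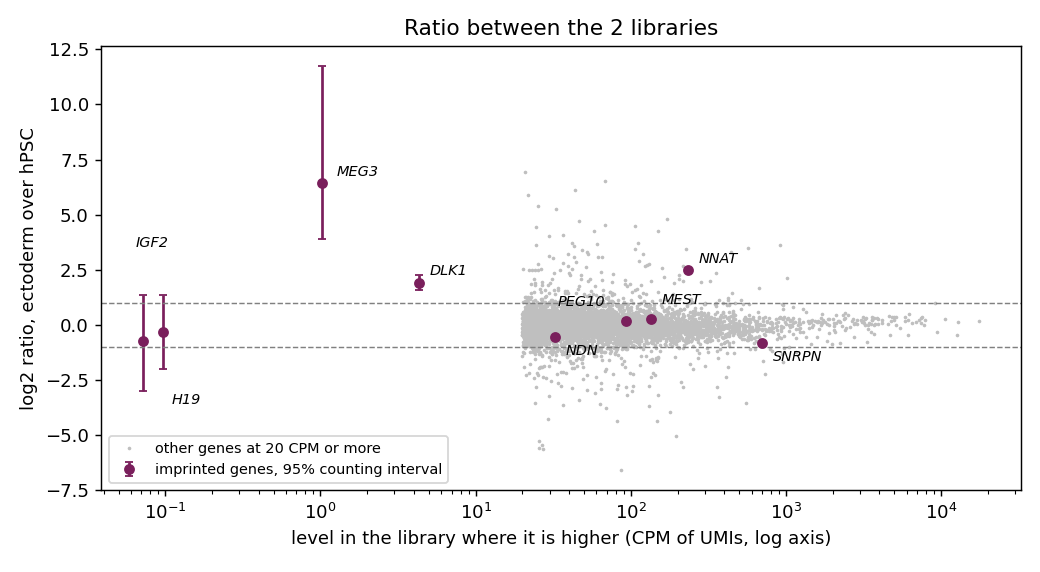
Log2 ratio of ectoderm over hPSC against the level in the library where the gene is higher (CPM of UMIs, log axis), for all genes at 20 CPM or more (grey) and the 9 imprinted genes with UMIs (purple, with 95% counting intervals); dashed lines mark log2 ratios of 1 and -1. NNAT lies at 2.48 above the upper line, SNRPN, NDN, PEG10 and MEST lie between the lines, and MEG3 and DLK1 lie above it at levels below 20 CPM.

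PEG10 and MEST, both on chromosome 7 and both read from the paternal copy, differed little. PEG10 (chr7:94656325-94669695, plus strand) descends from a retrotransposon and is needed for the placenta in mice. It had 92.8 CPM in ectoderm and 81.1 CPM in hPSC, a log2 ratio of 0.19 (0.15 to 0.24), and a UMI in 21.3% (20.7 to 22%) of thinned ectoderm cells and 18.3% (17.7 to 18.9%) of thinned hPSC cells. In cells with non-targeting guides alone the PEG10 ratio was -0.06, from 75 UMIs in ectoderm and 96 in hPSC. These are too few to give a direction in those cells. SGCE, which shares its start region with PEG10 and runs the other way, had 33.7 CPM in ectoderm and 27.8 CPM in hPSC, a log2 ratio of 0.28.

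MEST (chr7:130486171-130506465, plus strand) encodes a hydrolase-like protein made in mesoderm and during fetal growth. It had 134 CPM in ectoderm and 111 CPM in hPSC, a log2 ratio of 0.28 (0.24 to 0.32). A UMI was found in 27.6% (26.9 to 28.3%) of thinned ectoderm cells and in 23.9% (23.2 to 24.6%) of thinned hPSC cells. Cells with 3 or more UMIs made up 6.26% of ectoderm cells and 3.49% of hPSC cells. Of the annotated exon bases of MEST, 27.4% overlap genes on the opposite strand (MESTIT1, AC007938.2 and COPG2), and the strand setting of the counting is not given. COPG2 had 22.6 CPM in ectoderm and 17.8 CPM in hPSC, and MESTIT1, the antisense RNA at the start of MEST, 20 UMIs in ectoderm and 16 in hPSC, all well below MEST.

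**Figure D3:**
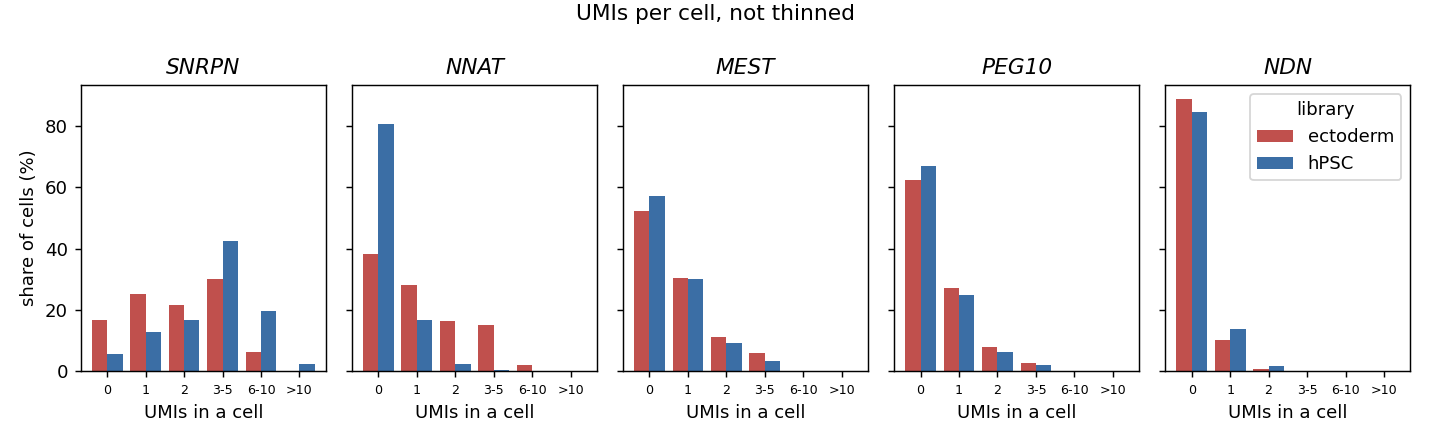
Share of cells (%) with 0, 1, 2, 3 to 5, 6 to 10 and over 10 UMIs of the 5 imprinted genes at 20 CPM or more, in ectoderm (red, 16360 cells) and hPSC (blue, 15326 cells), not thinned. For NNAT the bar at 0 is 38.3% in ectoderm and 80.6% in hPSC, for SNRPN it is 16.6% in ectoderm and 5.7% in hPSC, and for MEST, PEG10 and NDN the libraries lie close together.

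DLK1 and MEG3 are neighbours in the imprinted cluster of chromosome 14, where DLK1, a NOTCH pathway ligand-like membrane protein, is read from the paternal copy and MEG3, a long non-coding RNA, from the maternal copy. In human pluripotent lines MEG3 is known to vary and to be silent in many of them. MEG3 (chr14:100779410-100861031, plus strand) had 94 UMIs in ectoderm and 1 UMI in hPSC, which is 1.03 CPM (0.832 to 1.26) in ectoderm and 0.012 CPM (0.000304 to 0.0669) in hPSC. Its ratio rests on that single hPSC molecule, a fold of 85.8 and a log2 ratio of 6.42 (3.91 to 11.74). The 94 molecules lay in 88 of 16360 ectoderm cells, or 0.538%, and 5 of those cells held 2 or more. The 24 of them with an assigned guide carried 20 different targets, and no target had more than 2.

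DLK1 (chr14:100725705-100738224, plus strand) had 395 UMIs or 4.33 CPM in ectoderm and 96 UMIs or 1.15 CPM in hPSC, a log2 ratio of 1.91 (1.58 to 2.25). It was found in 370 ectoderm cells, 2.26%, of which 22 held 2 or more UMIs, and in 96 hPSC cells, 0.626%, each with a single UMI. Thinning left 1.06% (0.905 to 1.24%) of ectoderm cells and 0.278% (0.2 to 0.377%) of hPSC cells. Cells with a UMI of either gene were deeper than the rest: in ectoderm their median was 6619.5 UMIs for MEG3 and 6021 for DLK1, against 4499 for all cells. Both MEG3 and DLK1 were found in 5 ectoderm cells, too few to say whether the neighbours are read in the same cells.

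MEG8, a further maternal RNA of the cluster, had 78 UMIs in ectoderm and 27 in hPSC, a log2 ratio of 1.40 (0.75 to 2.09). DIO3, the deiodinase at the far end of the cluster, had 13 UMIs in ectoderm and 12 in hPSC. RTL1, which descends from a retrotransposon and lies between DLK1 and DIO3, had 1 UMI in ectoderm and 0 in hPSC. MEG9 had 0 UMIs in ectoderm and in hPSC. Of 2 further neighbours beside DLK1, BEGAIN had 25 UMIs in ectoderm and 57 in hPSC, a log2 ratio of -1.32 (-2.06 to -0.62), and WDR25 had 677 UMIs in ectoderm and 537 in hPSC, a log2 ratio of 0.20 (0.04 to 0.37). MEG3, DLK1 and MEG8 were thus counted more often in ectoderm, each at under 5 CPM, and BEGAIN was counted less often. The others differed little or gave too few molecules for a direction. Without a minimum level, 2719 of 28721 genes were at least 2-fold higher in ectoderm and 3883 at least 2-fold lower.

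H19 and IGF2 were close to undetected in both libraries. IGF2, the fetal growth factor read from the paternal copy, and H19, a non-coding RNA read from the maternal copy, share enhancers on chromosome 11 and are the classic pair of oppositely imprinted neighbours. H19 (chr11:1995176-2001470, minus strand) had 7 UMIs in ectoderm and 8 in hPSC, and IGF2 (chr11:2129112-2149603, minus strand) had 4 in ectoderm and 6 in hPSC. The log2 ratios, -0.33 (-2.02 to 1.33) for H19 and -0.72 (-2.99 to 1.36) for IGF2, include 0, so no difference was detectable at this depth. No ectoderm cell held both. All of the bases at the annotated 3′ ends of IGF2 are shared with other annotated genes on its strand, among them INS-IGF2, so the count of IGF2 is uncertain. INS-IGF2 had 0 UMIs in ectoderm and in hPSC, and AC132217.1 had 0 in ectoderm and 2 in hPSC. AC132217.2, whose ID carries the name IGF2 in GENCODE v29, shares these bases too and had 0 UMIs in ectoderm and in hPSC.

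PEG3 (chr19:56810077-56840728, minus strand), a paternally read zinc finger gene with a part in maternal behaviour in mice, had 0 UMIs in either library. With the floor taken as 3 counts, a count of 0 allows up to 0.0329 CPM in ectoderm and 0.036 CPM in hPSC, and a UMI in up to 0.0183% of ectoderm cells and 0.0196% of hPSC cells. It does not limit how many cells express PEG3 below what was captured. ZIM2, which shares its start and some of its exons, also had 0 UMIs in ectoderm and in hPSC.

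Spread between cells was described by the overdispersion of a gene, the variance beyond counting error relative to the square of the mean, with the total of each cell as exposure, where 0 means counting error alone. Over all genes at 20 CPM or more its median was 0.0556 in ectoderm and 0.0667 in hPSC. NNAT was the most dispersed of the 5 genes, at 0.29 in ectoderm and 0.30 in hPSC, and 3.77% of genes in ectoderm and 5.61% in hPSC were more dispersed. In ectoderm 38.3% of cells had no UMI of NNAT, against 33.3% from counting error at an even level, and the 10% of cells with most held 36.4% of its molecules. In hPSC the observed and the even share of empty cells were 80.6% and 80.1%, and the 10% with most held 58.6%. The share in the top cells depends on level too: NDN, less dispersed in hPSC at 0.11 but at 32.2 CPM, had 68%. The 36.4% and 58.6% of NNAT therefore do not compare its spread between the libraries. The hPSC overdispersion of NNAT was 0.19 without its 10 highest cells, a step that lowers the value by design.

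SNRPN was even from cell to cell, at 0.031 in ectoderm and 0.028 in hPSC, and 69.8% of genes in ectoderm and 74.7% in hPSC were more dispersed. PEG10 stood at 0.15 in ectoderm and 0.22 in hPSC, in the upper part of the range, with 15.7% of genes above it in ectoderm and 10.3% in hPSC. MEST stood at 0.093 in ectoderm and 0.051 in hPSC. NDN was at -0.00 in ectoderm and 0.11 in hPSC. Without its 10 highest cells NDN was at -0.16 in ectoderm and 0.031 in hPSC. Leaving out the highest cells of a gene lowers its value by design. These values therefore cannot show whether a few cells decide the estimate.

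**Figure D4:**
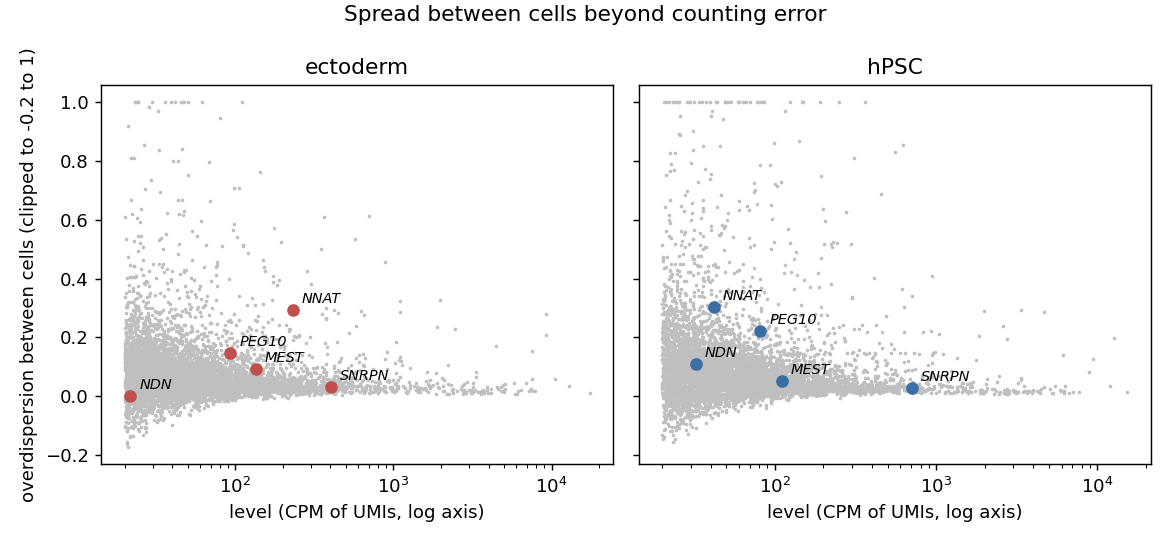
Overdispersion between cells against level (CPM of UMIs, log axis) for all genes at 20 CPM or more (grey) and the 5 imprinted genes among them, in ectoderm (left) and hPSC (right). NNAT lies high in each panel, at 0.29 in ectoderm and 0.30 in hPSC, and SNRPN lies low, at 0.031 in ectoderm and 0.028 in hPSC.

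The genes whose counts moved most like those of NNAT across the 16360 ectoderm cells, by Pearson r of log counts per 10000, were SIX3, a forebrain homeobox factor (0.166), RIPPLY3, a corepressor of T-box factors (0.150), and SFRP1, a secreted WNT antagonist (0.143). At the other end were PODXL, a surface sialomucin of pluripotent cells (-0.131), TUBB (-0.112) and TDGF1, a NODAL co-receptor of stem cells (-0.106). The median over all genes was 0.003. In hPSC the highest r for NNAT was 0.037, with ATP5PO. All of these are weak values from sparse counts of cells that share a library and their depth.

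MEST had RIPPLY3 (0.124), TPM1 (0.088) and FZD5 (0.086) as its 3 most alike genes in ectoderm. For SNRPN the highest value in ectoderm was 0.055, with SNHG14, and SNHG14 was again among the first 3 in hPSC, at 0.054. PEG10 was most like HNRNPA2B1 (0.070), NAP1L1 (0.069) and MYH10 (0.068) in ectoderm, and most like NCL (0.067), SNHG14 (0.066) and RPL13A (0.060) in hPSC. For NDN no value passed 0.040. Among pairs of the 10 genes the highest r was 0.058, for NNAT with MEST in ectoderm. SNRPN and NDN, which share an imprinting control region, had -0.003 in ectoderm and 0.009 in hPSC. PEG10 and SGCE had -0.003 in ectoderm and 0.026 in hPSC.

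Each library was clustered alone with the 10 genes left out of the clustering. NNAT ran from 196 to 272 CPM over the 4 ectoderm clusters and from 36.6 to 48.6 CPM over the 5 hPSC clusters, so each ectoderm cluster stood above every hPSC cluster. The ectoderm cluster with the least NNAT had APELA and PODXL among its leading genes, and the one with the most had SIX3-AS1, FGF17 and RIPPLY3. SNRPN ran from 365 to 415 CPM in ectoderm and from 667 to 738 CPM in hPSC, with no overlap. NDN ran from 20.2 to 23 CPM in ectoderm and from 29.8 to 35.9 CPM in hPSC. MEST and PEG10 overlapped between the libraries: MEST ran from 118 to 150.5 CPM in ectoderm and from 106 to 128 CPM in hPSC, and PEG10 from 73.1 to 97.2 CPM in ectoderm and from 73.3 to 95.1 CPM in hPSC. MEG3 had 0.384 CPM (0.184 to 0.706) in the ectoderm cluster led by APELA and 1.35 CPM (0.932 to 1.9) in that led by SIX3-AS1. The median UMIs per cell of these clusters were 4014 and 3711.

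Guides gave a further view within each library. A cell was assigned when exactly 1 guide had at least 20 amplicon UMIs, which held for 3686 ectoderm and 2915 hPSC cells; 28 ectoderm and 8 hPSC targets had 50 cells or more. NNAT ran from 184 CPM in cells with ALDH4A1 guides to 339 CPM in cells with TST guides in ectoderm, and from 21.2 to 69.8 CPM in hPSC. Non-targeting cells, 159 in ectoderm and 212 in hPSC, had 241 CPM (212 to 274) in ectoderm and 44.8 CPM (33.8 to 58.2) in hPSC. SNRPN ran from 320.4 to 448 CPM over ectoderm targets and from 623 to 775 CPM over hPSC targets, with 421 CPM (382 to 463) in ectoderm non-targeting cells and 681 CPM (636 to 728) in hPSC non-targeting cells. The NNAT and SNRPN values of the 2 libraries did not overlap over any of these targets.

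MEST had 152 CPM (129 to 178) in ectoderm non-targeting cells and 109.6 CPM (92 to 129.6) in hPSC non-targeting cells. PEG10 had 73.6 CPM (57.9 to 92.3) in ectoderm non-targeting cells and 76.8 CPM (62.2 to 93.8) in hPSC non-targeting cells. NDN was the gene for which the choice of cells counted most: in non-targeting cells it had 12 UMIs or 11.8 CPM (6.09 to 20.6) in ectoderm and 43 UMIs or 34.4 CPM (24.9 to 46.3) in hPSC, a log2 ratio of -1.55 against -0.57 over all cells. Over targets it ran from 8.89 to 36.1 CPM in ectoderm and from 14.2 to 36.4 CPM in hPSC, a nearly complete overlap.

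**Figure D5:**
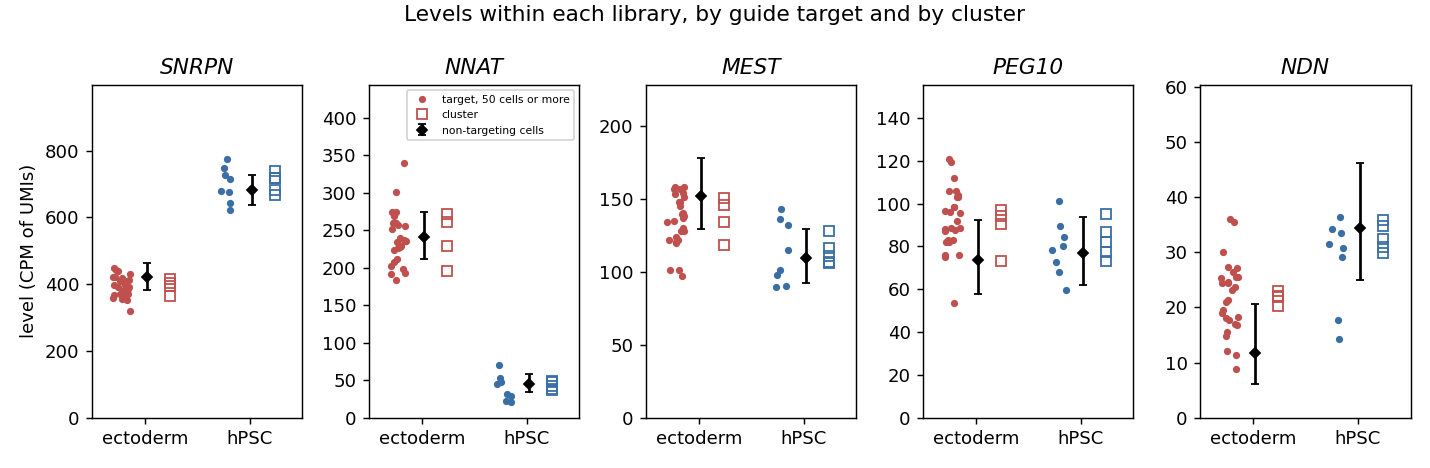
Levels (CPM of UMIs) of the 5 imprinted genes at 20 CPM or more within ectoderm (left of each panel) and hPSC (right): dots are guide targets with 50 cells or more, diamonds are non-targeting cells with 95% counting intervals, and open squares are clusters. The ectoderm and hPSC values are apart for NNAT and SNRPN and overlap for MEST and PEG10; for NDN the targets overlap, while the clusters and the non-targeting cells are apart.

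Genes of the same loci and of the same process were read from lists. Of 38 neighbours of the 10 genes, 12 reached 20 CPM, with 0 higher and 1 lower by the rule, a median log2 ratio of 0.31 and 9 of 12 above 0. Over all 6249 genes 3.25% were higher and 4.03% lower by the rule, the median was -0.03 and 2892 had a ratio above 0. At these shares, few or no calls are the background for lists as short as the ones below, too. The lower one was PHLDA2, a maternally read gene that restrains placental growth, with 17.2 CPM in ectoderm against 69.1 CPM in hPSC, a log2 ratio of -2.01. It lies in the cluster next to that of H19 and IGF2, where KCNQ1OT1 (-0.09) and NAP1L4 (-0.05) had the next lowest ratios. The highest ratios among neighbours were those of CASD1 (0.74), PON2 (0.71) and PPP1R9A (0.66), all of which flank PEG10. CDKN1C, an inhibitor of the cell cycle from the same chromosome 11 cluster as PHLDA2, had 31.1 CPM in ectoderm and 22.3 CPM in hPSC.

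Of 30 genes listed as imprinted at other loci, 6 reached 20 CPM and none met the rule. At 3.25% higher and 4.03% lower among all genes, that is the background for 6 genes. Whether these genes are imprinted in these cells was not tested. All 6 had a ratio above 0, as had 2892 of all 6249 genes, and their median was 0.35. GNAS, the stimulatory G protein subunit, had 392 CPM in ectoderm and 270.3 CPM in hPSC, a log2 ratio of 0.53. LIN28B, a blocker of let-7 maturation, had 146 CPM in ectoderm and 97 CPM in hPSC (0.59), and IGF2R, the receptor that clears IGF2, had 44 CPM in ectoderm and 32.5 CPM in hPSC (0.44). ZNF331 (0.04), INPP5F (0.23) and ZNF714 (0.26) had the lowest ratios.

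The IGF pathway, on which IGF2 acts, was represented by 11 of 19 genes at 20 CPM, of which 1 was higher, 0 were lower and 10 met neither rule, with a median of 0.37; among all genes 3.25% were higher and 4.03% lower. IGFBP5, a binding protein for IGFs, was the one that was higher, with 111 CPM in ectoderm against 8.36 CPM in hPSC (3.73). IGF2BP3, an RNA-binding protein named for IGF2 mRNA, had 471 CPM in ectoderm and 238 CPM in hPSC (0.98), just short of the rule, and INSR, the insulin receptor, had a ratio of 0.82. STC2 (-0.38), IGFBP2 (-0.07) and IGFBP4 (0.08) were at the low end. Receptors and binding proteins were therefore present in both libraries while IGF2 itself had fewer than 10 molecules counted in each. The count of IGF2 is uncertain, because the bases at its 3′ ends are shared with other annotated genes.

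Of 18 factors that set or keep imprints, 10 reached 20 CPM and none met the rule, with a median log2 ratio of 0.32. The highest were SMCHD1 (0.55), ZNF445 (0.53) and SETDB1 (0.44), and the lowest HELLS (-0.19), TRIM28 (-0.07) and DNMT1 (-0.02). ZFP57, the zinc finger that binds methylated imprinting control regions, was scarce, with 7 UMIs in ectoderm and 38 in hPSC, whereas ZNF445, which has a like role, had 35.6 CPM in ectoderm and 24.7 CPM in hPSC. DPPA3, which protects maternal methylation in the early mouse embryo, had 11 UMIs in ectoderm and 90 in hPSC. Of 11 genes that overlap or resemble the 10, 4 reached 20 CPM, and none met the rule.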

How the data were processed

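The authors deposited UMI counts for each gene in each cell barcode, not normalized. They used STAR and STARsolo with GRCh38, as the submitters' processing notes list; the versions, the gene annotation and the use of strand are not given here. The mismatch columns of the deposited amplicon tables are counts of mismatched bases by the authors and set no filter here. Cells were kept at 1000 UMIs, 500 genes and at most 20% mitochondrial UMIs, which removed 0 ectoderm and 7 hPSC barcodes; doublets stayed in. Summed counts gave CPM with exact Poisson intervals, log2 ratios with exact conditional binomial intervals, and shares of cells with Clopper-Pearson intervals. Where a library had 0 counts, the floor was 3 counts per library. Shares were compared after thinning cells to 2500 UMIs (seed 0). Overdispersion was a moment estimate for the negative binomial. Clusters are Leiden clusters with no name given. The 3 added transgenes were left out of the genes tested. The ratios and the overdispersion were tested on simulated data. Gene positions are from GENCODE v29, matched by Ensembl ID. Promoters are from RefSeq, where 5 of the 10 genes matched. NumPy 2.4.6, SciPy 1.17.1, scanpy 1.11.5, leidenalg 0.10.2 and, for the TMM alternative, edgeR 4.0.16 were used.

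The 10 genes and the lists were chosen with earlier results of these data known. Named genes are all 10, the 3 most alike by r, the 3 highest and 3 lowest ratios of each list at 20 CPM, and list genes that overlap or resemble one of the 10. NANOG, POU5F1, SOX2 and TDGF1, the listed neighbours on chromosomes 14 and 15, CDKN1C, ZFP57 and DPPA3, and the genes with the lowest r, were named after their values were seen. The labels give the same protocol text, with the induction, for all samples, so groups come from the titles and cell types. They name version 2 of the 10x chemistry. The hPSC amplicon table holds 1048575 reads and may be part of a longer one; it touches only the guide results.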

Additional observations from a re-analysis of the deposited data

How the results depend on the processing

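With 1 library per group there is no replicate error, and intervals cover counting error only. The rule of size was recomputed under 10 other settings in each direction. Without a minimum level, 3 of the genes were higher in ectoderm (NNAT, MEG3 and DLK1) in place of 1, and of all genes 2719 of 28721 were, in place of 203 of 6249. In non-targeting cells alone, 1 was lower (NDN, from 12 ectoderm and 43 hPSC UMIs) in place of 0, and of all genes 404 of 6437, in place of 252 of 6249. The NNAT ratio was 2.56 with median-of-ratios scaling. The median of all genes moved by 0.044 with TMM and 0.084 with median-of-ratios scaling. Of 68 recomputed ratios 10 left the counting interval of the ratio over all cells, which is narrower than that of a small subset. NNAT, SNRPN, MEST and NDN kept their direction. PEG10 was at -0.06 in non-targeting cells, from 75 ectoderm and 96 hPSC UMIs, too few to show a change of direction. SNRPN lay at -0.76 with TMM, -0.72 with median-of-ratios scaling, -0.78 as a mean over cells and -0.69 in non-targeting cells. In non-targeting cells MEST was at 0.47, and with median-of-ratios scaling it was at 0.36 and PEG10 at 0.28. Of 30 overdispersion values 4 moved. In ectoderm NDN was at 0.036 without the 5% deepest cells and at -0.16 without its 10 highest cells. The latter step lowers the value of any gene by design. Shares of cells follow the depth to which cells are thinned. No paired analysis was possible because each group has 1 library. At this depth H19, IGF2 and PEG3 had no detectable difference, and the causes were not tested.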
